A study of Mus musculus with 15 samples.

Results

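Bile acids are made from cholesterol in hepatocytes, and 9 genes of this pathway were followed in mouse liver: the synthesis genes Cyp7a1, Hsd3b7, Cyp8b1, Akr1d1, Cyp27a1 and Acox2, the conjugation genes Slc27a5 and Baat, and Nr0b2, which encodes the repressor SHP. They were taken by gene symbol from a table of 18510 rows, and all 9 were among the 10959 genes that were tested, those reaching 1 FPKM in 5 or more libraries. Expression was measured by RNA sequencing of liver RNA from 15 wild-type mice in 3 groups of 5. The group called Ctrl ate the control diet, Alc the alcohol diet, and the group called Alc UA received UA with the alcohol diet. The labels do not expand UA and carry no genetic change or other agent. The sources used here do not give strain, sex, age, the make-up and length of the diets or the hour of liver collection.

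Synthesis begins with cholesterol 7-alpha-hydroxylase, the product of Cyp7a1 and the rate-limiting enzyme of the classical pathway, while the mitochondrial sterol 27-hydroxylase encoded by Cyp27a1 opens the alternative pathway and oxidises the side chain in both. Cyp8b1 encodes the 12-alpha-hydroxylase that directs intermediates to cholic acid. Bile acids returning from the gut activate the nuclear receptor FXR, which induces Nr0b2, and SHP in turn represses Cyp7a1 and Cyp8b1 by acting on the receptors LRH-1 and HNF4-alpha at their promoters. Transcription of Cyp7a1 in rodent liver also follows the circadian clock, in part through the activator DBP.

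Promoter sequence bears on this circuit, so windows of the 9 genes were sought in RefSeq (GRCm38.p6), running from 250 bases before to 50 bases after each annotated start. Windows were found for 6 of the 9 genes (Cyp8b1, Cyp27a1, Akr1d1, Hsd3b7, Acox2 and Nr0b2), with 2 starts for Acox2 and 7 windows in all. None was found for Cyp7a1, Slc27a5 and Baat, so the search does not cover the Cyp7a1 promoter. Both strands were searched for the E-box CACGTG of clock proteins, the D-box TTANGTAA of DBP and its relatives, the ROR and REV-ERB element (the half-site AGGTCA directly after ANNT), the LRH-1 site CAAGGNCA, 2 half-sites AGGTCA in the same direction 1 base apart, and AGGTCA facing its reverse complement TGACCT 1 base apart, which is the form of an FXR element. The last 2 share their half-site with the ROR element, so matches can overlap. These letters occurred in 7.15%, 2.32%, 0.70%, 6.71%, 0.0396% and 0.00913% of 32851 windows of the same length. The Nr0b2 window held CAAGGCCA from 201 bases and CACGTG from 195 bases before the start, overlapping each other. The Cyp8b1 window held CAAGGGCA from 60 bases before the start, and the other windows held none of the searched letters. The windows of Cyp8b1 and Nr0b2 are shown for these matches and that of Akr1d1 as the gene with the largest difference on alcohol, 5′ to 3′ with matches in capitals. A match describes the letters and shows no binding.
Cyp8b1, chr9:121916256-121916555, minus strand: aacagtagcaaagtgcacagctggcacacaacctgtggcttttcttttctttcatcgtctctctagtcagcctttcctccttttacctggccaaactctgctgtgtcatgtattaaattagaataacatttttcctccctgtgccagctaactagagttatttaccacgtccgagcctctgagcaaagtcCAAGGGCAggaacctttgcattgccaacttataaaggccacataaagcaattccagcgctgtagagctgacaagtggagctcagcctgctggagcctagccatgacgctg
Nr0b2, chr4:133553126-133553425, plus strand: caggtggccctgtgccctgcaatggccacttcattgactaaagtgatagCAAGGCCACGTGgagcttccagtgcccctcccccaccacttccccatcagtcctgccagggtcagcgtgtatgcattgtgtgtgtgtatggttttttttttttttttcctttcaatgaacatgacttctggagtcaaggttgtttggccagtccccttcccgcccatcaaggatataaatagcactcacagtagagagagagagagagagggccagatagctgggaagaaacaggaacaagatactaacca
Akr1d1, chr6:37529923-37530222, plus strand: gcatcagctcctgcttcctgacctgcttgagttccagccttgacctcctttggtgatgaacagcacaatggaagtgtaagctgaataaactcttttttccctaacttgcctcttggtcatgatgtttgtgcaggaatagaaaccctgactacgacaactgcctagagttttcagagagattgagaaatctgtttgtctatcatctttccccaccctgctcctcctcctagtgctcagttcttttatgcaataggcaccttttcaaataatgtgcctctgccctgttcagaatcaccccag

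FPKM are fragments scaled to transcript length and to all mapped fragments of a library, so levels can be compared between genes. They summed to between 551153 and 668832 per library, and the number of reads behind them is unknown. Below, levels are FPKM as mean ± SD of 5 libraries, and differences are of log2(FPKM + 1) with ± giving the SE. For genes of low expression that scale gives too small a change. The median difference of all tested genes was -0.12 in Alc against Ctrl and -0.16 in Alc UA against Ctrl, and differences are given on the deposited scale unless called relative to that median. A gene passed at a limma adjusted p under 0.05. Among the controls, Ctrl 5 was closest to the livers on alcohol along the first principal component (45.7% of the variance; -6.04 against -48.4 to -30.2 for the other controls), and Ctrl 1 had the highest second component of its group (23.2). Without these 2 libraries all member calls named below kept their side of the threshold except that of Hsd3b7 in Alc, and no other member passed. Hepatocyte markers were high in every library, with Alb at 14848 FPKM or more.

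The genes differed widely in level and in how far mice of 1 group varied. Cyp8b1 (404 FPKM over 15 libraries) and Slc27a5 (317) had the highest means, followed by Hsd3b7 (217), Cyp27a1 (143), Baat (133), Akr1d1 (81.4), Acox2 (67.4) and Cyp7a1 (42.8). The repressor gene Nr0b2 was lowest, at 21.5. Cyp7a1 varied most within groups, with a residual SD of 0.776 on the log2 scale, larger than that of 98.6% of tested genes. Nr0b2 came next (0.670, larger than 97.7% of genes), then Akr1d1 (0.425) and Cyp8b1 (0.373). Acox2 (0.133) and Hsd3b7 (0.172) lay below the median of all tested genes, 0.199. In Alc against Ctrl, the difference seen for Acox2 was thus within reach of the test. The smaller Acox2 differences of the other comparisons did not pass. For Cyp7a1 and Nr0b2 the intervals were wide.

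**Figure D1:**
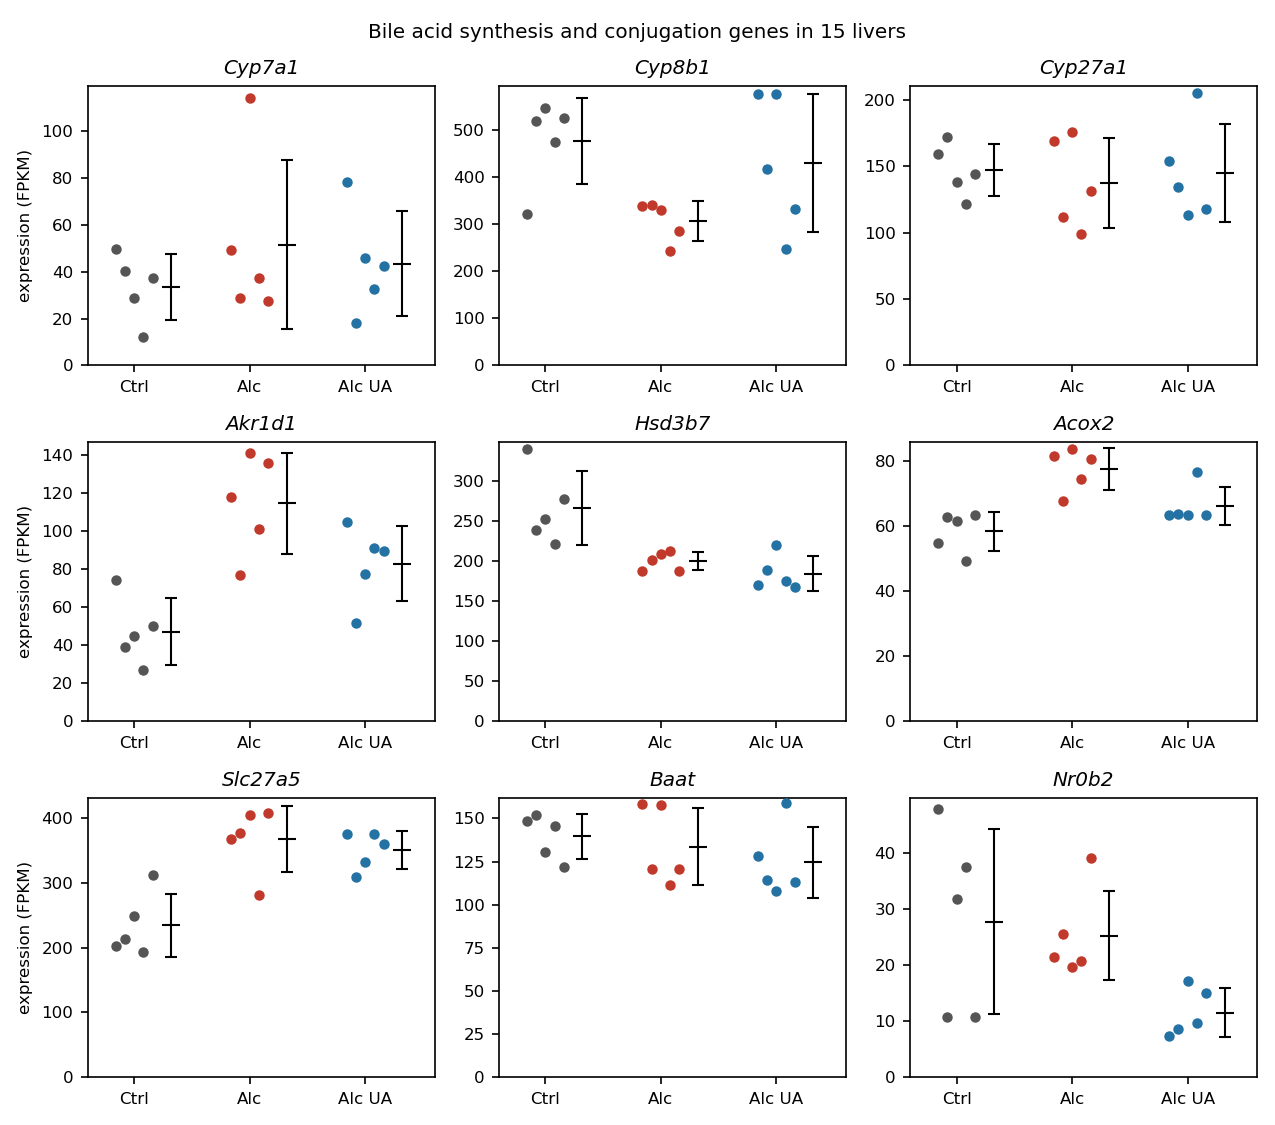
Expression (FPKM, vertical axes from 0) of the 9 genes in each of 15 livers. Points are libraries, left to right replicate 1 to 5, and bars are the mean and SD of 5. Akr1d1 lies higher in every Alc library (76.6 to 141) than in every Ctrl library (27.0 to 74.2), and Nr0b2 lies lower in every Alc UA library (7.29 to 17.2) than in every Alc library (19.6 to 39.0).

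Setting Alc beside Ctrl shows which of these steps differed in liver on the alcohol diet. Akr1d1, Slc27a5 and Acox2 rose, Cyp8b1 and Hsd3b7 fell, and Cyp7a1, Cyp27a1, Baat and Nr0b2 did not pass. Thus 3 of 9 genes were higher and 2 lower. Over all tested genes 33.3% passed, 10.6% higher and 22.8% lower, and with 9 genes the difference between these shares is not read as a result. The split over all genes depended on scale: 1157 were higher and 2497 lower as deposited, 2206 and 1672 with median-of-ratios size factors, 2049 and 2024 after quantile normalization, and 1602 and 1294 with libraries scaled to the same sum. With size factors, and with equal sums, 3 members were higher and 0 lower. The median difference of the 9 genes was 0.065, against -0.12 for all tested genes.

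Akr1d1, which encodes the 5-beta-reductase that sets the bent ring structure of bile acids, showed the largest difference. Its FPKM were 74.2, 39.0, 45.1, 27.0 and 50.3 in Ctrl 1 to 5 and 118, 76.6, 141, 101 and 136 in Alc 1 to 5. The groups did not overlap, with Ctrl 1 the highest control and Alc 2 the lowest alcohol library. The mean was 2.43-fold higher in Alc (114 ± 26.4 against 47.1 ± 17.4; log2 difference 1.30 ± 0.24, limma adjusted p = 0.00137), or 1.42 relative to the median of all genes. In all 28 alternative settings Akr1d1 kept its call, with differences from 1.13 to 1.60.

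Conjugation begins with the bile acyl-CoA synthetase encoded by Slc27a5, which prepares bile acids for the transfer of taurine or glycine. Slc27a5 was 202, 213, 249, 194 and 312 FPKM in Ctrl 1 to 5 and 368, 376, 405, 280.2 and 407 in Alc 1 to 5. The groups overlapped only through Ctrl 5 and Alc 4. The mean was 1.57-fold higher in Alc (367 ± 51.5 against 234 ± 48.3; log2 difference 0.66 ± 0.14, limma adjusted p = 0.00267), and the call held in all 28 settings. Baat, whose enzyme carries out that transfer, was 134 ± 22.5 in Alc against 139.7 ± 13.0 in Ctrl. Its log2 difference was -0.07 ± 0.13 (95% interval -0.34 to 0.20), and the sign turned with size factors (0.096) and with equal sums (0.066).

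Acox2 encodes the peroxisomal oxidase that starts shortening of the sterol side chain. It was 54.9, 62.8, 61.7, 49.3 and 63.3 FPKM in Ctrl 1 to 5 and 81.6, 67.6, 83.7, 74.5 and 80.6 in Alc 1 to 5. All alcohol libraries lay above all controls, by a narrow gap between Ctrl 5 and Alc 2. Acox2 was 1.33-fold higher (77.6 ± 6.54 against 58.4 ± 6.10; log2 difference 0.41 ± 0.09, limma adjusted p = 0.00482), a call that held in all 28 settings. Of the 9 genes, 3 had groups that did not overlap, Akr1d1, Acox2 and Hsd3b7, and 15.8% of all tested genes did so.

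Hsd3b7 and Cyp8b1, which act between the first hydroxylation and the reductase, were lower. Hsd3b7, a hydroxysteroid dehydrogenase that modifies the sterol ring right after 7-alpha-hydroxylation, was 340.2, 239, 253, 222 and 277 FPKM in Ctrl 1 to 5 and 189, 202, 209, 213 and 188 in Alc 1 to 5. The highest alcohol library lay just under the lowest control, and the alcohol libraries were close together. Hsd3b7 fell by 0.40 ± 0.11 on the log2 scale (200.1 ± 11.3 in Alc against 266 ± 46.0 in Ctrl, limma adjusted p = 0.0158), or by 0.28 relative to the median of all genes. The call held without any 1 library but not with size factors, equal sums, or without both Ctrl 1 and Ctrl 5 (adjusted p = 0.107, 0.118 and 0.0827).

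Cyp8b1 was 321, 517, 545, 473 and 525 FPKM in Ctrl 1 to 5, and 339, 340.4, 329, 242 and 285 in Alc 1 to 5. In 4 controls it was above every alcohol library, while Ctrl 1 lay among them. Cyp8b1 fell by 0.62 ± 0.22 (307 ± 42.6 in Alc against 476 ± 90.8 in Ctrl, limma adjusted p = 0.0385). This call was fragile: it was lost without any single library of these groups other than Ctrl 1 and Alc 3 (adjusted p = 0.0515 to 0.0815), without the filter (0.0625), and under all 3 other scalings (0.113 to 0.184). In every setting the difference stayed negative, between -0.75 and -0.45.

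Both entry enzymes and the repressor gave no call. Cyp7a1 was 49.5, 40.5, 28.6, 12.3 and 37.3 FPKM in Ctrl 1 to 5 and 49.1, 28.8, 114, 37.4 and 27.6 in Alc 1 to 5. Apart from Alc 3, which held more than any other library, the alcohol livers lay within the range of the controls. The log2 difference was 0.52 ± 0.43 (95% interval -0.40 to 1.43, limma adjusted p = 0.370), and it was 0.18 without Alc 3. Cyp27a1 was 147 ± 19.3 in Ctrl and 137 ± 33.9 in Alc, with a log2 difference of -0.12 ± 0.18 (95% interval -0.51 to 0.26) that was 0.046 with size factors and 0.015 with equal sums. Nr0b2 was 47.7, 10.8, 31.8, 37.4 and 10.7 FPKM in Ctrl 1 to 5 and 21.5, 25.5, 19.6, 20.7 and 39.0 in Alc 1 to 5. Ctrl 2 and Ctrl 5 lay below every Alc library and Ctrl 1 above every one, while the remaining controls lay inside the Alc range. Mean and median were lower in Alc (mean 25.3 ± 8.01 against 27.7 ± 16.5, median 21.5 against 31.8). The log2 difference had the opposite sign, at 0.07 ± 0.37 (95% interval -0.73 to 0.86). With library weights it was 0.74 (limma adjusted p = 0.0633), and it turned to -0.19, -0.20 and -0.10 without Ctrl 2, Ctrl 5 and Alc 5.

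**Figure D2:**
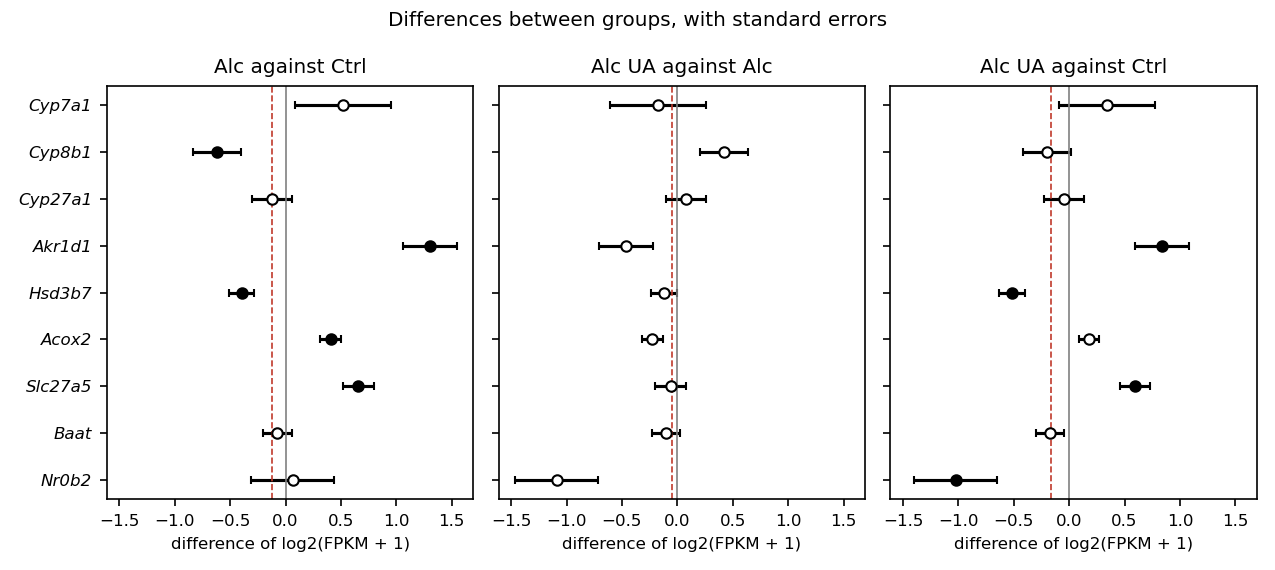
Difference of log2(FPKM + 1) between 2 groups (horizontal axes) for the 9 genes, with SE. Filled points passed at a limma adjusted p under 0.05, open points did not, and the dashed line is the median of all tested genes. Akr1d1 at 1.30 lies farthest from 0 in Alc against Ctrl, and Nr0b2 at -1.09 lies farthest in Alc UA against Alc, where no member passed.

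The comparison of Alc UA with Alc asks what differed when UA was given with the alcohol diet. The median difference of the 9 genes was -0.12, against -0.051 for all tested genes. By limma 0 of 9 members passed, where 0.00912% of all tested genes did, that is 1 gene of 10959. It was Mup5, a major urinary protein gene whose reads may be shared with its close relatives, and it was named after its values were seen. At an unadjusted limma p under 0.05 there were 2 members, Nr0b2 and Acox2, and 664 of all tested genes.

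Nr0b2 was the member with the largest difference and the only one whose groups did not overlap, as in 1.18% of all tested genes. In Alc UA 1 to 5 it was 7.29, 8.56, 17.2, 9.60 and 14.98 FPKM, while the lowest Alc library, Alc 3, held 19.6. Each library with UA was therefore below each without it. The mean was 11.5 ± 4.32 with UA against 25.3 ± 8.01 without, a ratio of 0.456, and the log2 difference was -1.09 ± 0.37 (95% interval -1.88 to -0.30). Nr0b2 ranked 157th of all tested genes by p, and the limma adjusted p was 0.712, so the difference did not pass. Over 28 alternative settings the difference was -1.25 to -0.93 and the adjusted p 0.245 to 1.0. Alc UA 1, Alc UA 2 and Alc UA 4 had lower Nr0b2 than any of the other 12 libraries.

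Among the synthesis genes, Cyp8b1 was 576, 417, 575, 246 and 332 FPKM in Alc UA 1 to 5. Alc UA 1, Alc UA 2 and Alc UA 3 exceeded every Alc library, whereas Alc UA 4 and Alc UA 5 lay within their range. The log2 difference was 0.42 ± 0.22 (429 ± 146 against 307 ± 42.6; 95% interval -0.04 to 0.88, limma adjusted p = 0.825). Akr1d1 was 105, 51.8, 77.4, 90.9 and 89.3 in Alc UA 1 to 5, with a log2 difference of -0.47 ± 0.24 (82.8 ± 19.8 against 114 ± 26.4; 95% interval -0.98 to 0.05). Alc UA 2 lay below every Alc library and the other 4 within their range, and all 5 lay above every control except Ctrl 1.

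Acox2 was 63.5, 63.7, 63.3, 76.7 and 63.5 FPKM in Alc UA 1 to 5, and 4 of the 5 were thus below every Alc library. Its log2 difference was -0.23 ± 0.09 (95% interval -0.43 to -0.03, limma adjusted p = 0.819). Hsd3b7 (184.8 ± 21.6 with UA), Slc27a5 (349.8 ± 29.0), Baat (124 ± 20.7) and Cyp27a1 (145 ± 37.1) gave log2 differences of -0.12 ± 0.11, -0.06 ± 0.14, -0.10 ± 0.13 and 0.08 ± 0.18. Their 95% intervals all lay between -0.37 and 0.46, which bounds the differences these livers allow. Slc27a5 turned to 0.014 with size factors. Cyp7a1 was 78.2, 17.9, 45.7, 32.7 and 42.5 in Alc UA 1 to 5, with a log2 difference of -0.18 ± 0.43 (43.4 ± 22.3 against 51.4 ± 36.1; 95% interval -1.09 to 0.74). Without Alc 3 it was 0.16.

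Alc UA was also compared with Ctrl, using the same control livers as the comparison of Alc with Ctrl, so the 2 sets of differences are not independent. Of the 9 genes, 2 were higher (Akr1d1 and Slc27a5) and 2 lower (Hsd3b7 and Nr0b2), while 42.6% of all tested genes passed, 10.5% higher and 32.1% lower. Again the split over all genes moved with scaling, from 1152 higher and 3521 lower to 2738 and 2022 with size factors and to 2420 and 2430 after quantile normalization, while equal sums gave 1310 and 2540. Akr1d1 rose by 0.84 ± 0.24 (limma adjusted p = 0.0121), where it had risen by 1.30 in Alc. Slc27a5 rose by 0.60 ± 0.14 and Hsd3b7 fell by 0.52 ± 0.11 (limma adjusted p = 0.00325 and 0.00259). All 3 of these calls held in each of 28 settings.

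Nr0b2 fell by 1.02 ± 0.37 against Ctrl (11.5 ± 4.32 against 27.7 ± 16.5, limma adjusted p = 0.0373), but Ctrl 2 and Ctrl 5 lay within the Alc UA range. The call was lost without any single one of the controls 1, 3 and 4 (adjusted p = 0.0845 to 0.102) or of the UA libraries 1, 2 and 4 (0.0683 to 0.0924), and also with the replicate number as a block (0.0587), with library weights (0.257), with the 2 groups alone (0.0664), without the filter (0.0638) and under all 3 other scalings (0.0524 to 0.0791). With library weights the difference shrank to -0.51. Cyp8b1 gave -0.20 ± 0.22 (95% interval -0.66 to 0.26) and turned to 0.047 with size factors, so its values with UA were not separable from either other group. Acox2, at 0.18 ± 0.09, did not pass (adjusted p = 0.131), although its groups did not overlap by the gap between Ctrl 5 at 63.33 and Alc UA 3 at 63.34, and it passed with size factors and after quantile normalization (adjusted p = 0.0116 and 0.0228). In this comparison 2 members had groups that did not overlap, Hsd3b7 and Acox2, against 20.2% of all tested genes. Cyp7a1 (0.34 ± 0.43), Cyp27a1 (-0.04 ± 0.18) and Baat (-0.17 ± 0.13) did not pass, and both Cyp27a1 and Baat changed sign with size factors, Cyp27a1 also with equal sums and after quantile normalization. For Cyp7a1 the difference ranged from 0.028 without Ctrl 4 to 0.61 without Alc UA 2, and was 0.094 without Alc UA 1.

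Ratios of 2 enzymes within a library do not change when a library is scaled by 1 factor, and 3 were compared in each of the 3 contrasts by two-sided exact permutation tests, which with 5 against 5 cannot give a p below 0.0079. None of the 9 passed after Benjamini-Hochberg adjustment, and 3 had an unadjusted p under 0.05. A single ratio at the lowest possible p would still not pass this adjustment. The lack of calls is therefore not read as a lack of difference. Cyp8b1 exceeded Cyp7a1 in every liver, 6.48-, 12.8-, 19.1-, 38.5- and 14.1-fold in Ctrl 1 to 5 and 6.89-, 11.8-, 2.88-, 6.47- and 10.3-fold in Alc 1 to 5. The control range reached far above the alcohol range, but its lower end lay inside it. The log2 ratio was 2.79 ± 0.80 in Alc against 3.94 ± 0.93 in Ctrl, a difference of -1.15 (exact permutation p = 0.0476, adjusted p = 0.143). With UA it was 3.39 ± 0.72, which differed from Alc by 0.60 (exact permutation p = 0.278) and from Ctrl by -0.55 (exact permutation p = 0.349). The difference of Alc from Ctrl was -0.84 without Alc 3 and -0.82 without Ctrl 4 (exact permutation p = 0.103 and 0.135). Without Ctrl 1 it was -1.47 (exact permutation p = 0.0159, adjusted p = 0.0714). The difference of Alc UA from Alc was 0.29 without Alc 3 and 0.32 without Alc UA 2. That of Alc UA from Ctrl was -0.22 without Ctrl 4, -0.86 without Ctrl 1 and -0.84 without Alc UA 2.

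Baat relative to Slc27a5, the 2 successive steps of conjugation, was 0.735, 0.715, 0.523, 0.751 and 0.391 in Ctrl 1 to 5, against 0.296 to 0.430 in Alc and 0.314 to 0.425 in Alc UA. Of the controls, Ctrl 5 lay inside the alcohol range and the other 4 lay above it. The log2 ratio differed by -0.73 in Alc (exact permutation p = 0.0238, adjusted p = 0.107) and by -0.77 in Alc UA (exact permutation p = 0.0159, adjusted p = 0.107). Without Ctrl 5 both passed (-0.89 and -0.93, exact permutation with adjusted p = 0.0356 each). Leaving out this control, the only one inside the alcohol range, separates the groups completely and gives the smallest possible p. Neither difference passed in any other setting. Alc UA and Alc differed by -0.04 (exact permutation p = 0.762). Cyp27a1 relative to Cyp7a1, which sets the alternative against the classical entry step, had log2 ratios of 2.26 ± 0.62 in Ctrl, 1.60 ± 0.63 in Alc and 1.86 ± 0.86 in Alc UA, with exact permutation p of 0.143, 0.595 and 0.421 for Alc against Ctrl, Alc UA against Alc and Alc UA against Ctrl.

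**Figure D3:**
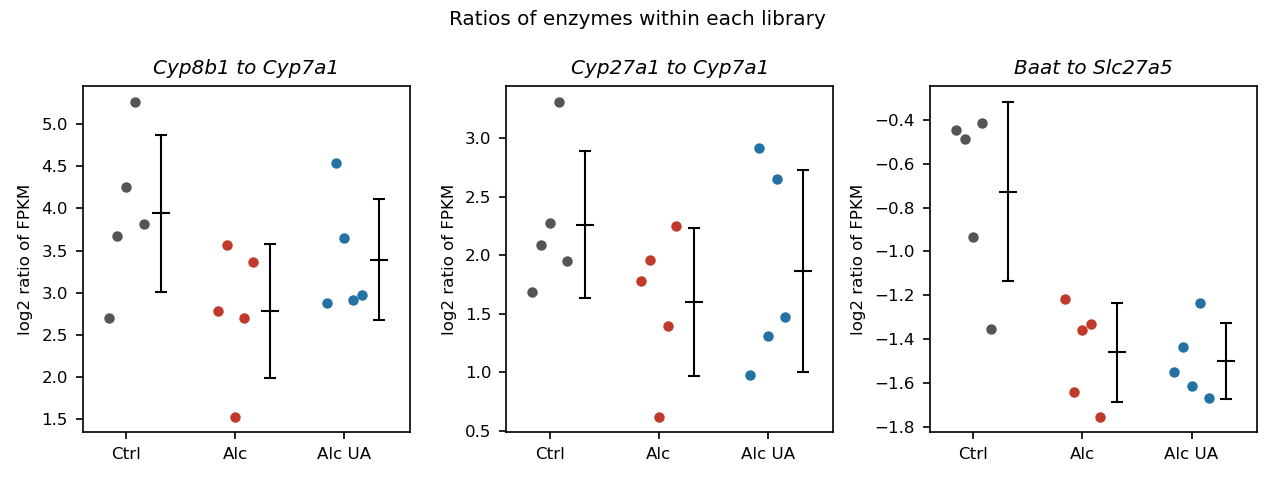
Log2 ratio of FPKM of 2 enzymes within each library (vertical axes) by group. Points are libraries, and bars are the mean and SD of 5. The ratio of Baat to Slc27a5 lies higher in the controls other than Ctrl 5 than in all alcohol-fed livers, and the ratio of Cyp8b1 to Cyp7a1 has its highest value in Ctrl 4 (5.27) and its lowest in Alc 3 (1.53).

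Whether the repressor and its targets moved against each other from mouse to mouse was examined after subtracting each group's mean, in 4 relations over 15 libraries with two-sided permutation p-values. Nr0b2 and Cyp7a1 had r = -0.269 and rho = -0.357 (permutation p = 0.389 and 0.234). Nr0b2 and Cyp8b1 had r = -0.257 and rho = -0.329 (permutation p = 0.382 and 0.264). For Cyp7a1 and Cyp8b1, r was 0.178 and rho 0.325 (permutation p = 0.567 and 0.267). None passed, with adjusted p of 0.519, 0.519 and 0.567 for r and 0.276 for each rho. Dbp, the clock output activator, and Cyp7a1 had r = 0.413 and rho = 0.325 (permutation p = 0.169 and 0.276, adjusted p = 0.519 and 0.276). Without the 2 libraries farthest from the median of the first gene, r was -0.448, -0.028, 0.205 and 0.031 in the same order. The rho values were then -0.429, -0.198, 0.148 and -0.049. The values for Dbp thus rested on Alc 3 and Ctrl 5. For Nr0b2 and Cyp8b1, r rested on Ctrl 1 and Ctrl 5, while rho kept more of its size.

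**Figure D4:**
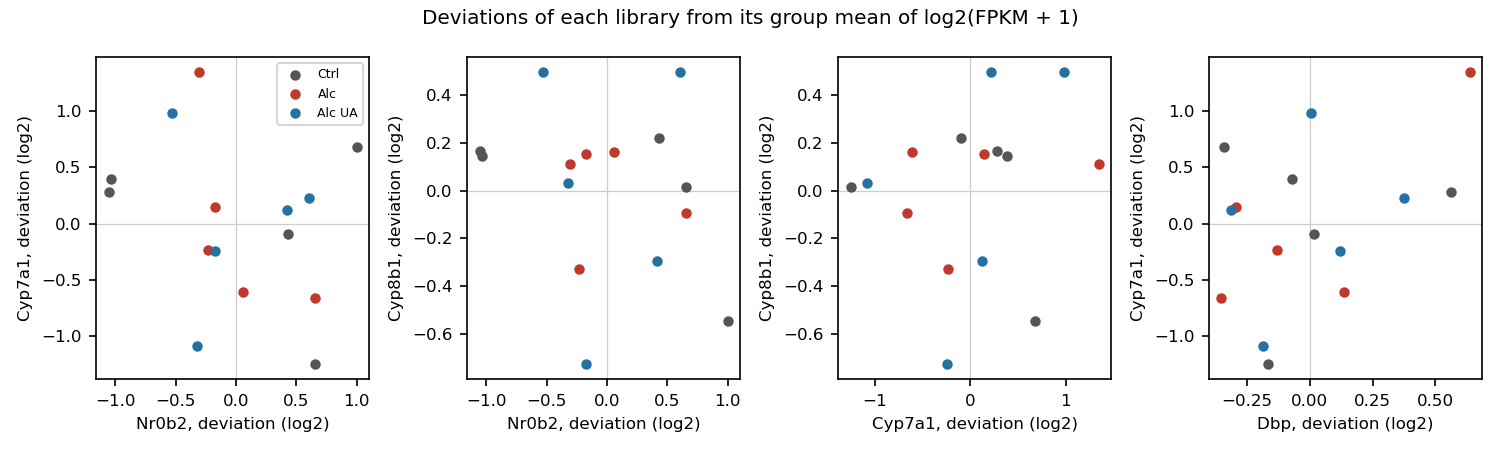
Deviation of each library from its group mean of log2(FPKM + 1) for 4 pairs of genes, coloured by group. The points scatter widely in every panel, and Alc 3 is the point at the upper right of the panel of Dbp and Cyp7a1 (r = 0.413 over 15 libraries).

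The genes whose profiles over 15 libraries were most like those of the 3 regulated genes were taken by Pearson's r of log2(FPKM + 1), as a description without a test. For Cyp7a1 they were Sdr42e1 (r = 0.843), Zfp759 (0.771) and Tbccd1 (0.770), with lower rho of 0.696, 0.581 and 0.639. Zfp759 was weakly expressed, at 0.72 to 2.03 FPKM. Among the members Akr1d1 was the most like Cyp7a1, at rank 19 (r = 0.656 over all libraries and 0.753 after removing group means), and both were highest in Alc 3. Cyp8b1 was most like Tnfaip8l1 (0.774), Brap (0.771) and Srd5a1 (0.756), the last encoding a steroid 5-alpha-reductase. Nr0b2 was most like Aopep (0.838), Nbdy (0.834) and Rbms2 (0.830), after 2 predicted gene models. Nbdy was weakly expressed, at 0.25 to 4.36 FPKM. Cyp7a1 and Nr0b2 themselves had r = -0.222 over all libraries, and Cyp8b1 and Nr0b2 had -0.256.

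Other enzymes of the pathway were followed in a list of 15, of which 14 were tested. In Alc, 2 were higher and 3 lower (median difference -0.072), where 10.6% of all tested genes were higher and 22.8% lower. Akr1c14, which encodes a hydroxysteroid dehydrogenase, rose by 0.86 ± 0.19 (135.6 ± 38.4 against 73.7 ± 17.7, limma adjusted p = 0.00376). Acot8, a peroxisomal thioesterase gene, fell by 0.50 ± 0.11 and Acnat1, a peroxisomal acyltransferase gene, fell by 0.56 ± 0.14 (limma adjusted p = 0.00332 and 0.00673). Cyp7b1, the oxysterol 7-alpha-hydroxylase of the alternative pathway, was 29.3 to 151 FPKM in Ctrl, 22.2 to 38.0 in Alc and 34.5 to 114 in Alc UA. The lowest control and the lowest liver with UA lay inside the Alc range, and both groups reached levels above it. Cyp7b1 fell by 1.15 ± 0.36 in Alc (limma adjusted p = 0.0235), and Alc UA against Alc gave 1.11 ± 0.36, the smallest p of the list in that comparison, which did not pass (adjusted p = 0.687). Acnat1 gave -0.34 ± 0.14 there (adjusted p = 0.802). None of the 14 passed with UA against Alc, 5 having an unadjusted p under 0.05, as did 664 of the 10959 tested genes. Against Ctrl, 0 were higher and 2 lower with UA, where 10.5% of all tested genes were higher and 32.1% lower.

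Of 15 regulators of bile acid synthesis, all tested, 6 were higher and 2 lower in Alc (median difference 0.18), beside 10.6% higher and 22.8% lower over all tested genes. The nuclear receptor partner gene Rxra rose by 0.53 ± 0.11 (109 ± 4.23 against 76.2 ± 12.9), the hepatocyte transcription factor gene Onecut1 rose by 1.44 ± 0.34 (8.20 ± 3.03 against 2.53 ± 1.66), and Zfp36l1, an RNA-binding protein gene, fell by 0.47 ± 0.12 (limma adjusted p = 0.00223, 0.00556 and 0.00957). Nr1h4, which encodes FXR, was 91.0 in Ctrl, 89.8 in Alc and 84.4 in Alc UA, and its difference in Alc was 0.01 ± 0.14. Nr5a2, the gene of LRH-1, rose by 0.42 ± 0.13 in Alc (limma adjusted p = 0.0193). Against Ctrl it rose by 0.47 ± 0.13 in Alc UA (limma adjusted p = 0.00823). Hnf4a, the gene of HNF4-alpha, gave -0.03 ± 0.16 in Alc and did not pass. None of the regulators passed with UA against Alc. There Foxa2, a forkhead factor gene, gave -0.81 ± 0.31 and Prox1 gave -0.18 ± 0.11 (adjusted p = 0.790 and 0.829), and Foxa2 was the 1 regulator with an unadjusted p under 0.05.

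FXR targets other than Nr0b2 numbered 9, of which 7 were tested, and in Alc 1 was higher and 1 lower (median difference -0.13; all tested genes 10.6% and 22.8%). Abcc2, a canalicular organic anion pump gene, rose by 1.12 ± 0.21 (71.7 ± 15.6 against 32.7 ± 7.64), and Abcb4, the canalicular phospholipid transporter gene, fell by 0.42 ± 0.11 (limma adjusted p = 0.00134 and 0.0128). Kng1 gave 0.27 ± 0.11 (adjusted p = 0.0701). With UA against Alc none passed and Abcb4 was the 1 target with an unadjusted p under 0.05, at 0.32 ± 0.11 (adjusted p = 0.779), while Mafg gave -0.20 ± 0.13. Slc51b, an FXR-induced bile acid exporter gene, did not pass the filter. Its mean was 1.09 FPKM in Ctrl, 0.814 in Alc and 0.532 in Alc UA. The ranges overlapped (0.36 to 2.79, 0.47 to 1.21 and 0.12 to 0.92), so these means are not read as a trend. The ileal hormone Fgf15, which also represses Cyp7a1, is not analysed here.

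Clock genes moved with the diet groups: of 13 tested, 9 were higher and 3 lower in Alc, and 9 and 3 in Alc UA against Ctrl, beside 10.6% and 22.8%, and 10.5% and 32.1%, of all tested genes. Dbp rose by 3.98 ± 0.20, Per3 rose by 2.54 ± 0.17, and Arntl, the gene of the activator BMAL1, fell by 2.27 ± 0.12 (limma adjusted p = 1.2e-08, 2.4e-07 and 2.8e-08). Cyp7a1 did not pass in the same libraries. With UA against Alc none of the 13 passed, 2 having an unadjusted p under 0.05: Nfil3, which encodes the D-box repressor, gave 0.49 ± 0.16 and Hlf gave -0.28 ± 0.10 (adjusted p = 0.690 and 0.737). The part of clock phase in the differences of Akr1d1, Slc27a5, Acox2, Hsd3b7 and Cyp8b1 was not tested.

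Markers of some other cell types also moved with diet. Over all tested genes 10.6% were higher and 22.8% lower in Alc, a split that moved with scaling. The counts of cholangiocyte and periportal markers below are too small to be read as results beside these shares. Sinusoidal endothelial markers fell in Alc in 6 of 7 cases, with a summed level of 122 to 352 FPKM in Ctrl, 49.8 to 114 in Alc and 52.4 to 72.0 in Alc UA. All 3 tested markers of T and NK cells and all 3 of B and plasma cells fell. All 5 erythroid markers fell as well, from sums of 1431 to 8800 FPKM in Ctrl to 576 to 988 in Alc. Kupffer cell and stellate cell markers, 7 of each, gave no call in Alc. Cholangiocyte markers, with sums of 26.3 to 201 FPKM in Ctrl and 24.8 to 103 in Alc, gave 1 lower of 4 tested, and Cftr was at or near 0 throughout. Of 5 hepatocyte markers 1 rose and 2 fell. Pericentral hepatocyte markers, from the zone in which Cyp7a1 is mainly expressed, gave 5 higher and 2 lower of 10, and periportal markers 0 higher and 1 lower of 9. In whole liver, fewer cells of a type and less RNA per cell cannot be told apart, and the part of cell make-up in the members' differences was not tested.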

How the data were processed

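Liver RNA of 15 mice, 5 per group, was measured by RNA sequencing on an MGISEQ instrument per the labels. What the authors deposited is a single table of FPKM, 2 decimals each. Tools listed by the submitters' processing notes, with no role stated, are RSEM 1.2.8, HISAT2 2.1.0, StringTie, DESeq and Bowtie2 2.2.5. Build, annotation and strand setting: not given in the sources used here. Columns were matched to mice by letter and number. Count models need raw counts and were left out. Low values did not give relative depth, since the most frequent ratio to Ctrl 1 came out at exactly 1 in 12 of 14 libraries. No interval that needs read counts is given. Labels do not say that libraries came from separate cages or litters, so p-values measure the spread between these samples.

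Values were analysed as log2(FPKM + 1) with a linear model over 3 groups in limma 3.58.1 (R 4.3.3). The variance prior followed mean expression, with Benjamini-Hochberg adjustment over 10959 genes per comparison. The fit was tested on simulated data. Ratios were tested by exact permutation and relations within groups by 100000 permutations within groups (Python 3.11.15). Alternatives changed the pseudocount, filter, scaling, variance prior, library weights, groups in the fit, the replicate number as a block, or left out libraries.

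All 9 members are reported. Related genes came from 4 lists. From each, the 3 smallest p in Alc against Ctrl and the 2 smallest in Alc UA against Alc are named. Cyp7b1, Nr1h4, Nr5a2, Hnf4a and Slc51b were added after their values were seen where the rule did not name them. The members and lists were chosen with earlier results of these data known. Figures were drawn with matplotlib 3.10.9.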

Additional observations from a re-analysis of the deposited data

Results flagged for a closer look

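Of 36 groups of 5 values checked (9 genes and 3 ratios in 3 groups), 2 held a library far from the others by Dixon's test, where chance flags about 5%. Cyp7a1 in Alc 3 was 114.07 FPKM, with the next Alc library at 49.1 and the lowest at 27.6, so the gap took 0.751 of the range. Akr1d1 was also highest in that library. Acox2 in Alc UA 4 was 76.73 FPKM, where the other 4 libraries lay between 63.34 and 63.74 and the gap took 0.970 of the range. The same library held the highest Cyp27a1 (205) and Baat (159.1) and the lowest Cyp8b1 (246) of its group.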

How the results depend on the processing

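Of 756 recomputed differences of the 9 genes (28 settings in 3 comparisons), 705 kept direction and side of the threshold. The call was lost in 28 and gained in 2, and 21 changed sign, none of these with a call. Many could not change direction. A difference stays the same when the library left out belongs to the group outside the comparison. It also stays the same with other filters or variance priors, the 2 groups alone and the replicate block. The 705 is therefore not read as a measure of robustness. Genes called in Alc UA against Alc were 1, and 2 with at least 1 FPKM in all 15 libraries, with equal sums and without both Ctrl 1 and Ctrl 5, 3 with library weights, 0 with the 2 groups alone and with the replicate block, and 1 to 5 with 1 library left out. Library weights raised the genes called in Alc against Ctrl from 3654 to 5870. Members called there were 5, but 3 with size factors and 3 with equal sums, where Cyp8b1 and Hsd3b7 lost the call. They were 4 after quantile normalization, without the filter and without both Ctrl 1 and Ctrl 5. With 1 library left out they were 4 to 5. The cause was not tested.

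Sign changes with scaling were as follows. With size factors, Cyp27a1 turned to 0.046 and 0.20 in Alc and Alc UA against Ctrl, Baat to 0.096 and 0.069, Cyp8b1 to 0.047 in Alc UA against Ctrl and Slc27a5 to 0.014 in Alc UA against Alc. With equal sums, Cyp27a1 turned to 0.015 and 0.041 and Baat in Alc to 0.066, and after quantile normalization Cyp27a1 in Alc UA turned to 0.074. Cyp7a1 in Alc UA against Alc turned to 0.086 with library weights. With 1 library left out, Nr0b2 in Alc against Ctrl ran from -0.20 to 0.32, Cyp27a1 in Alc UA against Ctrl from -0.18 to 0.034 and against Alc from -0.054 to 0.18, and Cyp7a1 in Alc UA against Alc from -0.42 to 0.16. The log2 ratio of Baat to Slc27a5 ran from -0.89 to -0.66 in Alc and from -0.93 to -0.70 in Alc UA against Ctrl, and from -0.11 to 0.0203 in Alc UA against Alc, where that of Cyp27a1 to Cyp7a1 ran from -0.0006 to 0.48. In Alc and Alc UA against Ctrl the latter ran from -0.82 to -0.40 and from -0.66 to -0.14. That of Cyp8b1 to Cyp7a1 ran from -1.47 to -0.82 in Alc against Ctrl, from 0.29 to 0.80 in Alc UA against Alc and from -0.86 to -0.22 in Alc UA against Ctrl.

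Same-numbered libraries are not stated to share anything, and 1, 3 and 1 of 5 pairs had deviations correlated over 0.1 in the 3 comparisons (range -0.302 to 0.287), so the numbers were not taken as pairs. With the replicate block 3554, 0 and 4534 genes and 5, 0 and 3 members passed in Alc against Ctrl, Alc UA against Alc and Alc UA against Ctrl. For ratios the block allows no p below 0.0625. Reads per library are unknown, so the counting error of weakly expressed genes such as Slc51b cannot be given.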
